A study of Mus musculus with 2 samples.

Results

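Integrins and the proteins that couple them to the actin cytoskeleton were followed as 38 genes of the 32285 listed in the count matrices. The genes were chosen by symbol from a fixed list, and each symbol matched 1 gene. The list held 25 integrin subunits, of which 8 are typical of leukocytes and 17 bind mainly extracellular matrix, and 13 adaptors of focal adhesions. The RNA came from mononuclear cells of the quadriceps of wild-type (WT) C57BL/6J mice. The muscle had been injured by an intramuscular injection of barium chloride (BaCl2, 100 µl at 1.2% w/v), which makes muscle fibres degenerate, and was collected 9 h or 2 h later. Each time was 1 droplet library (10x 3′ v3.1) of cryo-preserved cells loaded for a target of 5000 cells. The sources used here do not give the number, age or sex of the mice behind a library, and no uninjured library was used.

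An integrin is a heterodimer of an alpha and a beta chain in the cell membrane. Its outer part binds matrix proteins or counter-receptors on other cells, and its inner part binds talin and kindlin, which switch it to the active state and link it to actin. Leukocytes use beta2, beta7 and alpha4 integrins to stop on and cross the vessel wall, while fibroblastic and endothelial cells use beta1 and alphaV integrins to hold fibronectin, collagen and laminin. Injured muscle brings these systems together, since neutrophils and monocytes enter a tissue whose matrix-making cells are mesenchymal cells lying between the fibres, the fibro-adipogenic progenitors (FAPs).

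After filtering, 8147 cells with 35127600 UMIs (unique molecular identifiers, counted transcripts) stood at 9 h and 4900 cells with 27598413 UMIs at 2 h. The median cell had 2327 UMIs at 9 h and 4519 at 2 h. Cells were clustered without the 38 genes, so that those genes did not define the groups, and 12 classes were named after marker genes and called "like" that cell type. Each of the 6 classes with at least 100 cells in both libraries had every marker on its list above 0 in each library. At 9 h there were 4300 neutrophil-like, 2380 FAP-like, 535 endothelial-like, 361 monocyte-like, 233 resident macrophage-like and 117 dendritic-like cells. At 2 h there were 1635 neutrophil-like, 1995 FAP-like, 283 endothelial-like, 174 monocyte-like, 320 resident macrophage-like and 141 dendritic-like cells. Between them the libraries shared 20 cell barcodes, and leaving these cells out ended none of the calls below. A level is a gene's UMIs per 1000000 UMIs of its class (CPM). These are 3′ tags, which do not grow with transcript length but are captured with an efficiency that differs between genes, so levels are compared between cells and not between genes. Intervals are exact, at 95%, and cover counting error only: with 1 library per time no test across animals was possible. A gene is called higher or lower at 9 h where the log2 ratio of the levels, each with 10 CPM added, reached 1 or -1, and it counts as measured where the class held at least 100 of its UMIs over both libraries. "Within 2-fold" means inside that limit. RNA released by one cell type can be counted in another, so a carry-over estimate is given where it bears on a result. It is the level of S100a8 (for neutrophils) or Dcn (for FAPs) in a class, as a share of its level in neutrophil-like or FAP-like cells of the same library, times the level of the gene in those cells.

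The genes divided between the cell types. Of the 38 genes, 26 reached 50 CPM in at least 1 of the 6 larger classes, and 33 were measured in at least 1. The leukocyte integrin genes Itgal, Itgam and Itgb2 were highest in neutrophil-like or monocyte-like cells at both times. Itga6, which encodes the alpha6 chain of laminin receptors, was at 603 CPM at 9 h and 769.7 CPM at 2 h in endothelial-like cells, and under 16 CPM in the other 5 classes. Of all Itga5 UMIs, 88.7% at 9 h and 89.4% at 2 h lay in FAP-like cells, and of all Itgav UMIs 86.5% at 9 h and 77.5% at 2 h. The kindlins divided by lineage. In FAP-like cells Fermt2 (kindlin-2) was at 304 CPM at 9 h and 328 CPM at 2 h, and Fermt3 (kindlin-3, the form of blood cells) at 4.54 CPM at 9 h and 5.43 CPM at 2 h. In neutrophil-like cells Fermt2 was at 5.33 CPM at 9 h and 3.99 CPM at 2 h, and Fermt3 at 53.1 CPM at 9 h and 82.0 CPM at 2 h.

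**Figure D1:**
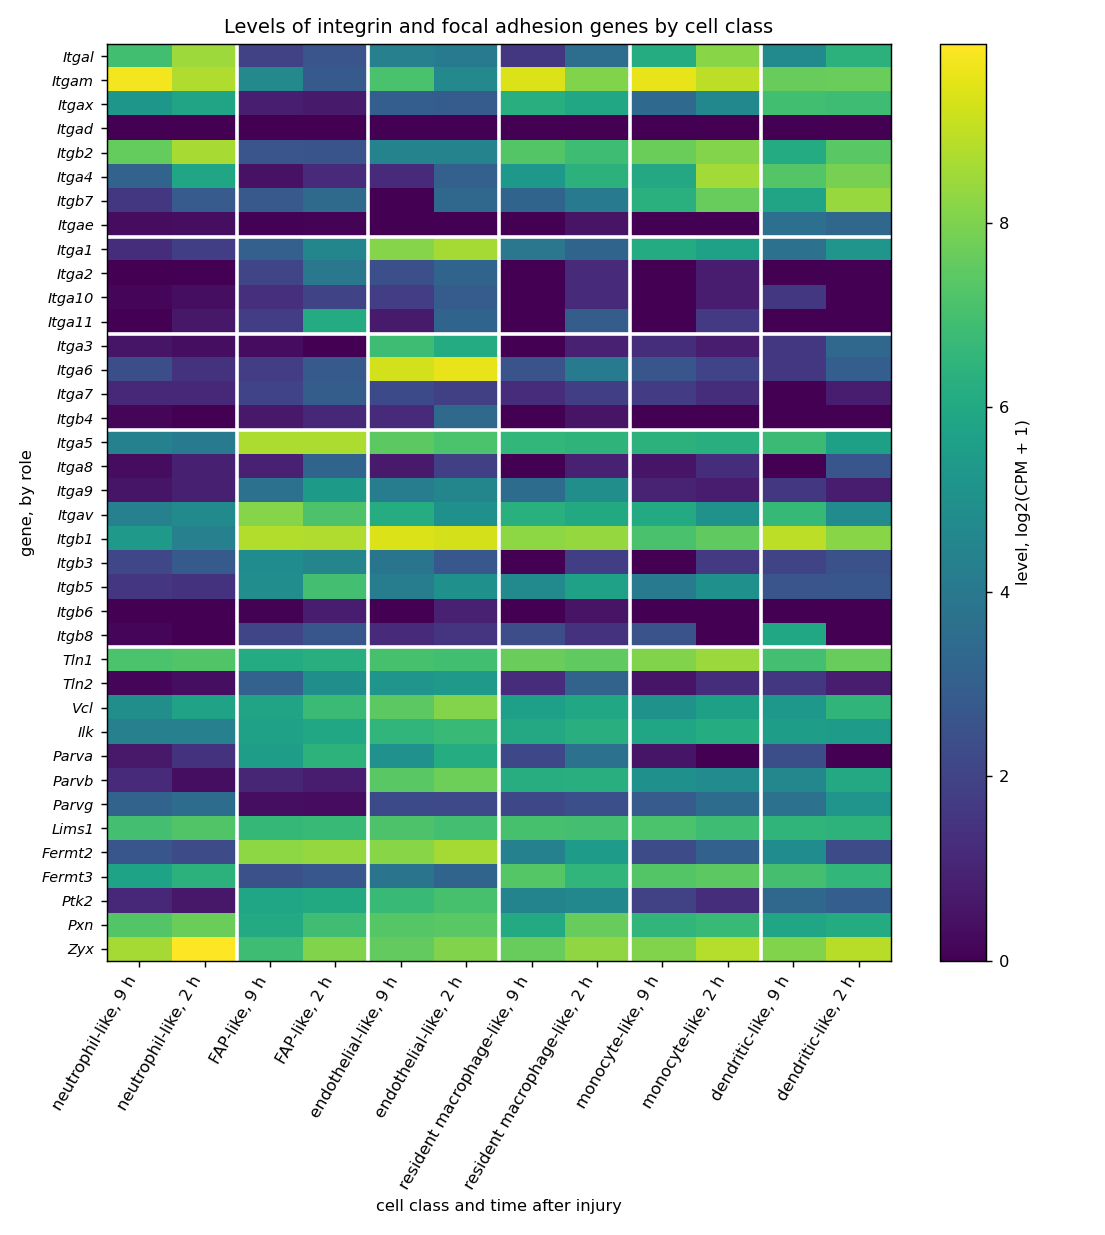
Level of each of the 38 genes (rows, with white lines between leukocyte, collagen-binding, laminin-binding and other matrix-binding integrins and adaptors) in the 6 larger classes at 9 h and 2 h (columns), as log2(CPM + 1) in colour. Itga6 and Itga3 stand out in the endothelial-like columns, Itga5, Itgav and Fermt2 in the FAP-like columns, and Itgam in the neutrophil-like, resident macrophage-like and monocyte-like columns.

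Sequence upstream of the start is shown for 4 genes past the 2-fold limit in the results that follow: Itgam, higher at 9 h in 4 classes, Itga4, lower in 2, and Itgb5 and Itga11, lower in FAP-like cells. The sequences are from RefSeq on GRCm38.p6 and lie on the plus strand, at chr7:128062390-128062639 for Itgam, chr2:79255176-79255425 for Itga4, chr16:33829415-33829664 for Itgb5 and chr9:62677605-62677825 for Itga11. Capitals mark GAGGAAG, a core bound by the myeloid factor PU.1 and other ETS factors, and GGGCGG, the GC box, on either strand (CTTCCTC and CCGCCC when they lie on the minus strand).
Itgam: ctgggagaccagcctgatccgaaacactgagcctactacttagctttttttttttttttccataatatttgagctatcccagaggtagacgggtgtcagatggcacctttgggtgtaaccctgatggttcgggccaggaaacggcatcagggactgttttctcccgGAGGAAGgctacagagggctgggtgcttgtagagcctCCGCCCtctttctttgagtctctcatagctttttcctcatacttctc
Itga4: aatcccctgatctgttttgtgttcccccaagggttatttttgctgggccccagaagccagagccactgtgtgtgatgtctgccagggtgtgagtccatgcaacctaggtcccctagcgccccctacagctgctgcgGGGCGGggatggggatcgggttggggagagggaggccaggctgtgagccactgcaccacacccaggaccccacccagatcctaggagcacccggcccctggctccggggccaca
Itgb5: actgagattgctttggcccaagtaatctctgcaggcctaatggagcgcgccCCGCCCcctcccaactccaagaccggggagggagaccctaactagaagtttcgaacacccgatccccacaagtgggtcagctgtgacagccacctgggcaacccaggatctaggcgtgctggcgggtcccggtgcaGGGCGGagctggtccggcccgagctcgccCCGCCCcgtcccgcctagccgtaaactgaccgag
Itga11: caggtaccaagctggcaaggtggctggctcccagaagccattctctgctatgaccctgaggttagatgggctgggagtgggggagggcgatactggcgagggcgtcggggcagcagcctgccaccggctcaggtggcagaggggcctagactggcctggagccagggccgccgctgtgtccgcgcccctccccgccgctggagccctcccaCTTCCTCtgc
The Itgam stretch held GAGGAAG on the plus strand and a GC box on the minus strand. Itga4 held 1 GC box, Itgb5 held 3, and Itga11 held GAGGAAG on the minus strand. The Itga11 stretch has 221 bases and the other 3 have 250. Of the 38 genes, 26 had an entry in the RefSeq table of windows around gene starts. GAGGAAG was found in 6 of those 26 and in 10.6% of all 32851 windows, the GC box in 13 and in 32.7%, and TGANTCA, the AP-1 core, in 2 and in 6.75%. TATAAA was found in 1 and in 12.4%, and the CArG box, bound by serum response factor, in 3 (Fermt2, Itgb6 and Vcl) and in 1.47%. A gene was counted where any of its windows held the match, while the percentages are of single windows. A gene with several windows has more chances of a match, so the counts and percentages are not on the same scale. Such a match describes the letters only.

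Neutrophil-like cells carried the genes of the beta2 integrins, receptors for ICAM-1 and complement, and the alpha chains among them went opposite ways. Itgam, which encodes CD11b, the alpha chain of Mac-1, was higher at 9 h, and Itgal (CD11a, the alpha chain of LFA-1), Itgb2 (CD18, their common beta chain) and Itga4 (CD49d, the alpha chain of VLA-4) were lower. Of the 8 leukocyte integrin genes, 5 were measured here, and Itgax, which encodes CD11c, was at 37.3 CPM at 9 h and 55.3 CPM at 2 h, within 2-fold. Itgam (ENSMUSG00000030786, chromosome 7, 128062640 to 128118491, plus strand, mm10) was at 870.0 CPM at 9 h (7186 UMIs, 850.0 to 890.3) and 427 CPM at 2 h (1500 UMIs, 406 to 449). The 9 h level was 2.04 times as high (1.93 to 2.15), a log2 ratio of 1.01 that lay just past the limit. Itgal (ENSMUSG00000030830, chromosome 7, 127296260 to 127335138, plus strand) was at 119.9 CPM at 9 h and 356 CPM at 2 h, 2.97-fold lower at 9 h (2.73 to 3.23). Itgb2 (ENSMUSG00000000290, chromosome 10, 77530252 to 77565708, plus strand) was at 191 CPM at 9 h and 393 CPM at 2 h, 2.05-fold lower (1.91 to 2.21), only just past the limit. Itga4 (ENSMUSG00000027009, chromosome 2, 79255426 to 79333123, plus strand) had 66 UMIs and 7.99 CPM at 9 h and 198 UMIs and 56.4 CPM at 2 h, 7.06-fold lower (5.32 to 9.47). Neither the Itgam nor the Itgb2 call was firm, since a clustering resolution of 2 brought the log2 ratio of Itgam to 0.99, and scaling by TMM brought that of Itgb2 to -0.86.

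The share of cells with a transcript went the same way, counted after each cell was thinned to 1000 UMIs. At 9 h Itgam was found in 53.7% of 3976 neutrophil-like cells (interval 52.1 to 55.2%), and at 2 h in 33.5% of 1538 cells (interval 31.1 to 35.9%). Without thinning the shares were 70.3% at 9 h and 54.5% at 2 h. Itgal was found in 11.0% at 9 h and 28.7% at 2 h of thinned cells, and Itgb2 in 16.7% at 9 h and 32.2% at 2 h. FAP-like cells, which should lack these genes, had Itgam in 1.98% at 9 h and 0.608% at 2 h, and Itgb2 in 0.387% at 9 h and 0.608% at 2 h. The median neutrophil-like cell had 1655.5 UMIs at 9 h and 2011 at 2 h. For FAP-like cells the median was 8219.5 at 9 h and 7956 at 2 h. At 9 h a transcript of the partner chain Itgb2 was found in like shares of cells with and without an Itgam transcript. Itgb2 was found in 16.2% of the 2134 Itgam cells (14.7 to 17.8%) and in 17.3% of the other 1842 cells (15.6 to 19.1%). At 2 h it was found in 34.4% of 515 Itgam cells (30.3 to 38.6%) and 31.1% of 1023 others (28.3 to 34.0%).

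The neutrophil-like cells of the libraries lay mostly in different clusters, and clusters 0, 4 and the small cluster 19 held cells of both. In cluster 0, with 304 cells at 9 h and 1464 at 2 h, Itgam was at 429 CPM at 9 h and 437 CPM at 2 h, nearly the same level. In cluster 4, with 1029 cells at 9 h and 125 at 2 h, it was at 773 CPM at 9 h and 327 CPM at 2 h. At 9 h, clusters 3, 5 and 8, made up almost wholly of cells of that library, had Itgam at 954, 867 and 948 CPM. The lower levels of Itgal and Itgb2 at 9 h were found within clusters 0 and 4. Itgal was at 167 CPM at 9 h and 362 CPM at 2 h in cluster 0, and at 135 CPM at 9 h and 259.6 CPM at 2 h in cluster 4. Itgb2 was at 262 CPM at 9 h and 396 CPM at 2 h in cluster 0, and at 202 CPM at 9 h and 372 CPM at 2 h in cluster 4. Cluster 0 was led by Slc2a3, Pglyrp1 and Csf3r, and cluster 4 by Lrg1, Cd300lf and Spp1. Cluster 19, led by Rsad2, Isg15 and Oasl1, had 19 cells at 9 h and 25 at 2 h, so its intervals were wide. Itgam was there at 811 CPM at 9 h (23 UMIs, 514 to 1217) and 235 CPM at 2 h (12 UMIs, 121 to 410.2). Itgal was at 141 CPM at 9 h (4 UMIs, 38.4 to 361) and 313 CPM at 2 h (16 UMIs, 179 to 508). Itgb2, at 353 CPM at 9 h (10 UMIs, 169 to 649) and 254 CPM at 2 h (13 UMIs, 135 to 435), had the higher value at 9 h, with intervals that overlapped, and those of Itgal overlapped as well.

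Over all 38 genes, 16 were measured in neutrophil-like cells, with 1 higher at 9 h (Itgam) and 4 lower (Itgal, Itgb2, Itga4 and Zyx). Of all 4926 genes measured in the class, 4.79% were higher and 5.87% were lower. The median log2 ratio was -0.35 over the 16 genes and -0.07 over all genes of the class. No matrix-binding integrin gene reached 50 CPM here. Itgb1, the common beta chain of collagen, fibronectin and laminin receptors, was at 39.8 CPM at 9 h and 18.8 CPM at 2 h, 2.12 times as high (1.62 to 2.80) but under the limit with 10 CPM added. The carry-over estimate from FAP-like cells was 3.50 CPM at 9 h and 3.48 CPM at 2 h.

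**Figure D2:**
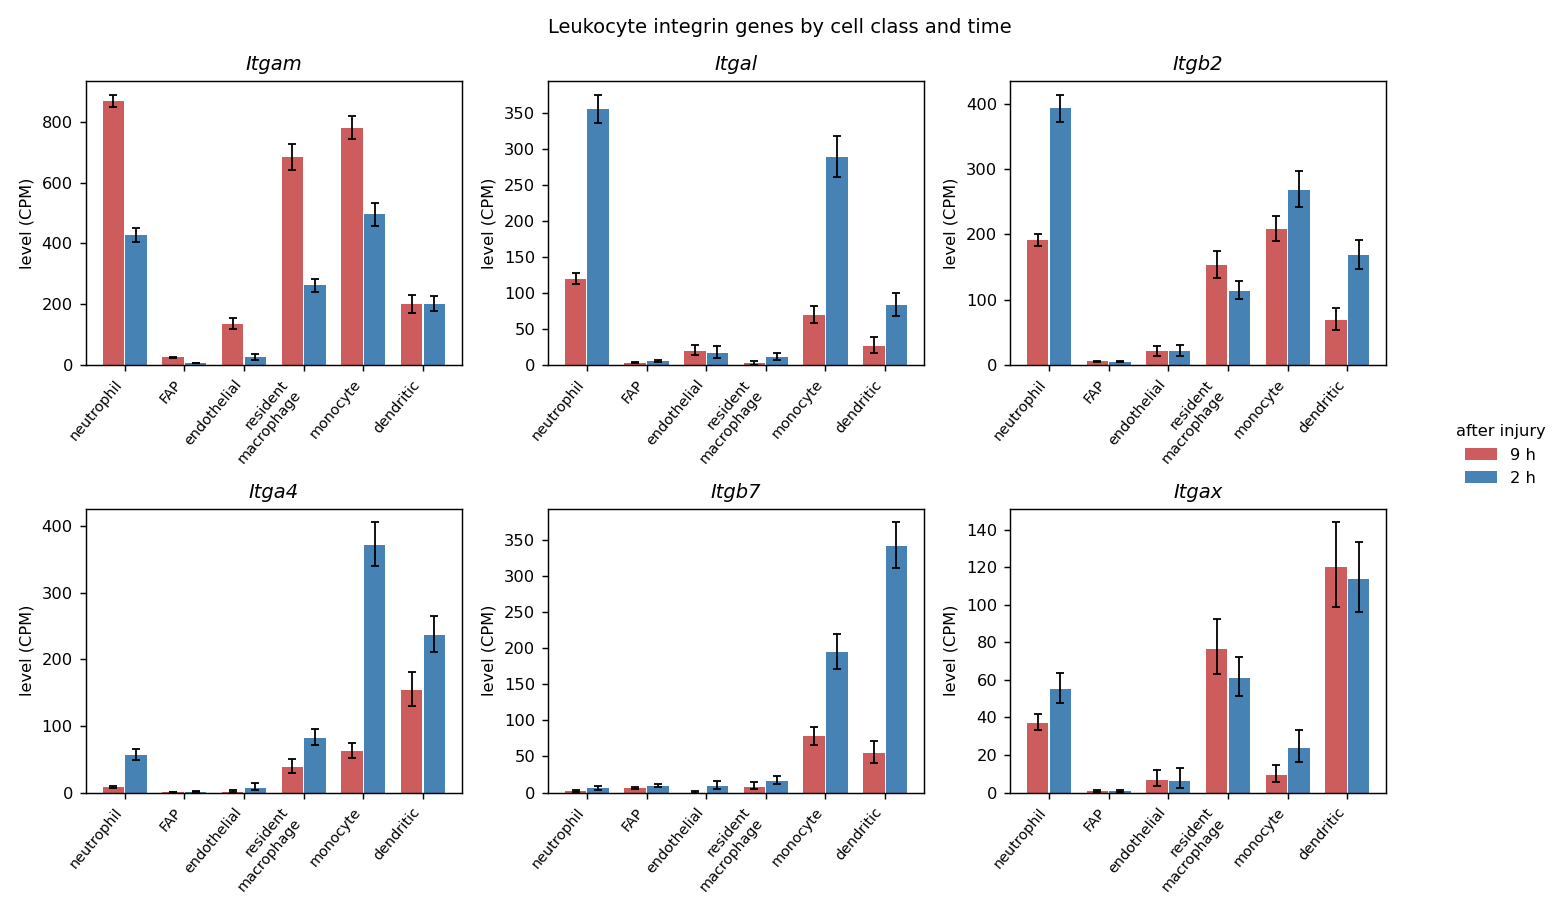
Levels (CPM, linear axes from 0) of 6 leukocyte integrin genes in the 6 larger classes, with 9 h in red left of 2 h in blue and exact 95% Poisson intervals as error bars. Itgam bars are taller at 9 h in neutrophil-like, resident macrophage-like and monocyte-like cells, and Itgal, Itga4 and Itgb7 bars are shorter at 9 h in monocyte-like and dendritic-like cells.

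Monocyte-like cells had much less of the alpha chains with which monocytes stop on the vessel wall at 9 h. Itga4, whose product pairs with beta1 to bind VCAM-1 and with beta7 to bind MAdCAM-1, was at 62.6 CPM at 9 h (131 UMIs, 52.3 to 74.2) and 372 CPM at 2 h (504 UMIs, 340.2 to 406), 5.95-fold lower (4.90 to 7.26). Itgal was at 69.2 CPM at 9 h and 289 CPM at 2 h, 4.17-fold lower (3.44 to 5.08). Itgb7 (ENSMUSG00000001281, chromosome 15, 102215995 to 102231944, minus strand), the beta chain of the gut-homing integrin, was at 77.8 CPM at 9 h and 194 CPM at 2 h, 2.49-fold lower (2.04 to 3.05). Itgam was at 781 CPM at 9 h and 495 CPM at 2 h and Itgb2 at 208 CPM at 9 h and 269 CPM at 2 h, both within 2-fold. At 9 h Itga4 was found in 3.36% of 357 thinned cells (interval 1.75 to 5.80%), and at 2 h in 35.3% of 173 (interval 28.2 to 42.9%). Without thinning the shares were 22.4% at 9 h and 85.1% at 2 h. After thinning, FAP-like cells had it in 0 of 2328 at 9 h (interval 0 to 0.158%) and in 0.152% at 2 h. The median monocyte-like cell had 5810 UMIs at 9 h and 7945 at 2 h. S100a8, a neutrophil gene that monocytes also express, was at 6.10% of its neutrophil-like level in this class at 9 h and at 2.21% at 2 h. The carry-over estimate for Itgal from neutrophil-like cells was 7.31 CPM at 9 h and 7.88 CPM at 2 h. Among markers of other cells, several lists were lower at 9 h along with the 3 genes, while others were higher. The lower lists included those of dendritic cells, FAPs, erythroid cells and B cells. The 5 erythroid markers, 2 of them at 0 at 9 h, summed to 4.30 CPM at 9 h and 948 CPM at 2 h. The 8 B cell markers, 5 of them at 0 at each time, summed to 5.73 CPM at 9 h and 38.4 CPM at 2 h. In monocyte-like cells the neutrophil markers summed to 7604 CPM at 9 h and 3860 CPM at 2 h. Resident macrophage markers summed to 366 CPM at 9 h and 258 CPM at 2 h, and platelet markers to 565 CPM at 9 h and 42.8 CPM at 2 h. The 12 dendritic markers, 3 of them at 0 at each time, summed to 1823 CPM at 9 h and 4019 CPM at 2 h in monocyte-like cells, and the 12 FAP markers, none at 0, to 84.1 CPM at 9 h and 859 CPM at 2 h. Dendritic-like cells had Itgb7 at 54.2 CPM at 9 h and 341 CPM at 2 h, and the carry-over estimate for Itgb7 from FAP-like cells was 0.0254 CPM at 9 h and 0.216 CPM at 2 h. The part of these cells and of carried-over RNA in the results was not tested. Of 17 measured genes of the 38, 0 were higher and these 3 were lower, where 4.5% of all 3934 measured genes were higher and 6.28% lower. The median log2 ratio was -0.24 over the 17 genes and -0.08 over all.

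Resident macrophage-like cells had more Itgam at 9 h, while Itgb2 and Itgax were within 2-fold. Itgam was at 683 CPM at 9 h (999 UMIs, 642 to 727) and 262 CPM at 2 h (600 UMIs, 242 to 284), 2.61 times as high (2.35 to 2.89). It was found in 46.5% at 9 h and 21.7% at 2 h of thinned cells, at a median depth of 5537 UMIs at 9 h and 5859.5 at 2 h. The carry-over estimate from neutrophil-like cells was 10.7 CPM at 9 h and 4.61 CPM at 2 h, a small share of either level. The 8 monocyte markers, 1 of them at 0 at 9 h, summed to 3214 CPM in this class at 9 h and 1575 CPM at 2 h, of which Thbs1 made up 2188 CPM at 9 h and 619 CPM at 2 h. The 12 markers of resident macrophages summed to 9355 CPM at 9 h and 11077 CPM at 2 h. The part of monocyte-like cells in the Itgam level was not tested. Itgb2 was at 153 CPM at 9 h and 114 CPM at 2 h, Itgax at 76.6 CPM at 9 h and 61.2 CPM at 2 h and Itga4 at 38.3 CPM at 9 h and 82.1 CPM at 2 h, all within 2-fold. Itgal was not measured here, with 3 UMIs at 9 h (2.05 CPM) and 25 at 2 h (10.9 CPM), 5.32-fold lower (1.62 to 27.5). Of 17 measured genes, 1 was higher (Itgam) and 1 lower (Pxn), against 4.11% higher and 8.24% lower of all 4383. The median log2 ratio was -0.02 over the 17 genes and 0.01 over all.

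Dendritic-like cells had less of the leukocyte beta chains at 9 h, and more Itgav and Itga5, the call on Itga5 being only just past the limit. Itgb7 was at 54.2 CPM at 9 h (52 UMIs, 40.5 to 71.1) and 341 CPM at 2 h (450 UMIs, 310.2 to 374), 6.29-fold lower (4.71 to 8.55). It was found in 1.77% at 9 h and 22.3% at 2 h of thinned cells, at a median depth of 7586 UMIs at 9 h and 8896 at 2 h, and in FAP-like cells in 0.430% at 9 h and 0.963% at 2 h. Itgb2 was at 68.8 CPM at 9 h and 168 CPM at 2 h (2.44-fold lower, 1.85 to 3.27) and Itgal at 26.1 CPM at 9 h and 83.3 CPM at 2 h (3.20-fold lower, 2.06 to 5.15). Itgax, whose CD11c product is the usual marker of these cells, was highest in this class of the 6 at both times, at 119.9 CPM at 9 h and 114 CPM at 2 h. Itgam was at 199 CPM at 9 h and 201 CPM at 2 h and Itga4 at 154 CPM at 9 h and 237 CPM at 2 h.

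The dendritic-like class held a different mixture of cells at each time. A separate clustering at resolution 2 gave 2 dendritic-like clusters, whose cells were not exactly those of the class. One was led by Cd209a, H2-Ab1 and Klrb1b, with 57 cells at 9 h and 143 at 2 h. The other was led by Ccl22, Ccr7 and Ccl17, with 59 cells at 9 h and 2 at 2 h. Ccr7 is the receptor with which mature dendritic cells move to lymph nodes. In the Cd209a cluster Itgb7 was at 87.4 CPM at 9 h (46 UMIs, 64.0 to 117) and 342 CPM at 2 h (446 UMIs, 311 to 375), and in the Ccr7 cluster at 14.0 CPM at 9 h (6 UMIs, 5.13 to 30.4). Itgb7 was thus lower at 9 h within the Cd209a cluster as well. Itgb2 was there at 101 CPM at 9 h and 164 CPM at 2 h, a smaller difference than in the whole class, and Itgal at 39.9 CPM at 9 h and 84.3 CPM at 2 h. In the Ccr7 cluster Itgb2 was at 23.3 CPM at 9 h (10 UMIs, 11.2 to 42.9) and Itgal at 9.32 CPM at 9 h (4 UMIs, 2.54 to 23.9). Itgam, close to equal over the class, was at 300.0 CPM at 9 h and 199 CPM at 2 h in the Cd209a cluster and at 65.3 CPM at 9 h (28 UMIs, 43.4 to 94.3) in the Ccr7 cluster. Itga4, within 2-fold over the class, was lower at 9 h within the Cd209a cluster. It was there at 76.0 CPM at 9 h (40 UMIs, 54.3 to 103) and 225 CPM at 2 h (294 UMIs, 200.3 to 253). In the Ccr7 cluster Itga4 was at 247 CPM at 9 h (106 UMIs, 202 to 299).

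On the matrix side of the dendritic-like cells, Itgav (alphaV, part of receptors for vitronectin and latent TGF-beta) was at 101 CPM at 9 h (97 UMIs) and 26.5 CPM at 2 h (35 UMIs), 3.81 times as high (2.57 to 5.78). Itga5, the alpha chain of the fibronectin receptor, was at 108 CPM at 9 h and 48.5 CPM at 2 h, 2.24 times as high (104 UMIs at 9 h and 64 at 2 h), and Itgb1 was at 497 CPM at 9 h and 287 CPM at 2 h, within 2-fold. FAP markers moved with these: Dcn was at 8.13% of its FAP-like level in this class at 9 h and at 0.304% at 2 h, and the 12 FAP markers, none of them at 0, summed to 1071 CPM at 9 h and 214 CPM at 2 h. The carry-over estimate from FAP-like cells was 22.6 CPM at 9 h and 0.430 CPM at 2 h for Itgav, and 34.4 CPM at 9 h and 1.28 CPM at 2 h for Itga5, under either 9 h level. Its part in the result was not tested. Within the Cd209a cluster of the finer clustering Itgav was at 72.2 CPM at 9 h (38 UMIs, 51.1 to 99.0) and 26.8 CPM at 2 h (35 UMIs, 18.7 to 37.3), and Itga5 at 103 CPM at 9 h and 49.0 CPM at 2 h. In the Ccr7 cluster Itgav was at 139.8 CPM at 9 h (60 UMIs, 107 to 180.0) and Itga5 at 119 CPM at 9 h (51 UMIs, 88.5 to 156). Fermt2, also carried by FAP-like cells, was at 41.8 CPM at 9 h (22 UMIs) and 3.83 CPM at 2 h (5 UMIs) in the Cd209a cluster. In the Ccr7 cluster Fermt2 was at 11.7 CPM at 9 h (5 UMIs). No carry-over estimate was made for these clusters, and the part of FAP RNA in their levels was not tested. Itgb8 (ENSMUSG00000025321, chromosome 12, 119158022 to 119238802, minus strand), whose beta8 chain pairs with alphaV, had 57 UMIs at 9 h (59.4 CPM, 45.0 to 77.0) and 0 at 2 h, at least 26.1-fold higher against a floor of 3 UMIs. The Ccr7 cluster had Itgb8 at 131 CPM at 9 h (56 UMIs, 98.6 to 169), and the Cd209a cluster held 1 UMI at 9 h. At 2 h the Ccr7 cluster had only 2 cells, with 0 UMIs and an interval of 0 to 160.5 CPM that covers its 9 h level. The 26.1-fold bound for the class therefore compares different mixtures of cells. One cell held 14 of the class's UMIs, and with under 100 UMIs the gene did not count as measured. FAP-like cells had Itgb8 at 3.22 CPM at 9 h and 5.31 CPM at 2 h, and the carry-over estimate at 9 h was 0.262 CPM. Of 17 measured genes of the 38, 2 were higher (Itga5 and Itgav) and 5 lower (Itgal, Itgb2, Itgb7, Vcl and Parvb) in dendritic-like cells, against 5.72% higher and 5.52% lower of all 2952. The median log2 ratio was -0.20 over the 17 genes and 0.01 over all. The Itga5 and Vcl calls were lost when the mitochondrial limit was lowered to 10% of UMIs and when the 38 genes took part in the clustering.

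Itgam also had a higher level at 9 h in FAP-like and endothelial-like cells, where it is not a characteristic gene. Its level among endothelial-like cells was 134 CPM at 9 h and 24.4 CPM at 2 h (215 UMIs at 9 h and 27 at 2 h), and among FAP-like cells 24.8 CPM at 9 h and 6.06 CPM at 2 h. S100a8 in endothelial-like cells was at 11.3% of its neutrophil-like level at 9 h and at 3.95% at 2 h, and in FAP-like cells at 1.90% at 9 h and 0.936% at 2 h. The carry-over estimate for Itgam from neutrophil-like cells was 98.3 CPM at 9 h and 16.9 CPM at 2 h in endothelial-like cells. In FAP-like cells it was 16.5 CPM at 9 h, of a level of 24.8 CPM. The 12 neutrophil markers, none of them at 0, summed to 12872 CPM at 9 h and 5905 CPM at 2 h in endothelial-like cells, and to 2299.6 CPM at 9 h and 1565 CPM at 2 h in FAP-like cells. The part of neutrophil RNA in the Itgam result was not tested. With the cells of highest doublet scores left out, the log2 ratio of Itgam in FAP-like cells was 0.64, against 1.11 with all cells. In endothelial-like cells Itgam then had under 100 UMIs.

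FAP-like cells had the fibronectin receptor genes Itga5 and Itgb1 at nearly the same level at both times, and at 9 h had far less of a collagen receptor gene, Itga11, and of the alphaV partner Itgb5. Of the 17 matrix-binding integrin genes, 13 were measured in these cells, with 0 higher and 3 lower at 9 h (Itga11, Itga9 and Itgb5). Over all 38 genes, 28 were measured, with 1 higher (Itgam) and 5 lower (those 3, Tln2 and Zyx), against 7.41% higher and 9.28% lower of all 10463 measured genes. The median log2 ratio was -0.28 over the 28 genes and 0.01 over all. Itga5 (ENSMUSG00000000555, chromosome 15, 103344286 to 103366763, minus strand) was at 423 CPM at 9 h and 421 CPM at 2 h, with an interval of the ratio of 0.971 to 1.04. Itgb1 (ENSMUSG00000025809, chromosome 8, 128685654 to 128733200, plus strand) was at 443 CPM at 9 h and 429.9 CPM at 2 h, a ratio of 1.03 (0.998 to 1.06).

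Itga11 (ENSMUSG00000032243, chromosome 9, 62677826 to 62783982, plus strand), the alpha chain of the fibril collagen receptor of fibroblasts, was at 2.45 CPM at 9 h (48 UMIs, 1.81 to 3.25) and 67.4 CPM at 2 h (1080 UMIs, 63.5 to 71.6). That was 27.5-fold lower at 9 h (20.6 to 37.6), the largest difference among the 28 genes. It was found in 0.344% at 9 h and 6.23% at 2 h of thinned FAP-like cells. In neutrophil-like cells it was found in 0 of 3976 at 9 h (interval 0 to 0.0927%) and 1 of 1538 at 2 h. Of its UMIs, 94.1% at 9 h and 92.1% at 2 h lay in FAP-like cells. Itgb5 (ENSMUSG00000022817, chromosome 16, 33829665 to 33949338, plus strand), the beta chain of a vitronectin receptor, was at 28.4 CPM at 9 h (26.1 to 30.8) and 122 CPM at 2 h (117 to 128), 4.31-fold lower (3.92 to 4.74). It was found in 2.71% at 9 h and 10.4% at 2 h of thinned cells, and in neutrophil-like cells in 0.126% at 9 h and 0.130% at 2 h. Itga9, the alpha chain of a receptor for tenascin-C and osteopontin, was at 12.4 CPM at 9 h and 41.1 CPM at 2 h, 3.33-fold lower (2.87 to 3.88). Of the other collagen receptor chains, Itga1 was at 7.35 CPM at 9 h and 22.5 CPM at 2 h. Itga2 was at 3.16 CPM at 9 h and 14.6 CPM at 2 h, and Itga10, which was not measured, was under 4 CPM. Itga1 and Itga2 were thus also lower at 9 h, but with 10 CPM added they did not reach the limit. Itga8, which pairs with beta1 to bind nephronectin, was at 0.868 CPM at 9 h and 8.12 CPM at 2 h, also lower but short of the limit.

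Itgav (ENSMUSG00000027087, chromosome 2, 83724397 to 83806916, plus strand) stood apart from its partner Itgb5. It was at 278 CPM at 9 h (5455 UMIs, 271 to 286) and 141 CPM at 2 h (2264 UMIs, 136 to 147), 1.97 times as high (1.87 to 2.07), a log2 ratio of 0.93 just under the limit. TMM scaling brought it past the limit, as did leaving out cluster 11. The other partner chains were Itgb3, at 27.6 CPM at 9 h and 21.7 CPM at 2 h, and Itgb8, at 3.22 CPM at 9 h and 5.31 CPM at 2 h, while Itgb6, the epithelial partner, was under 1 CPM.

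**Figure D3:**
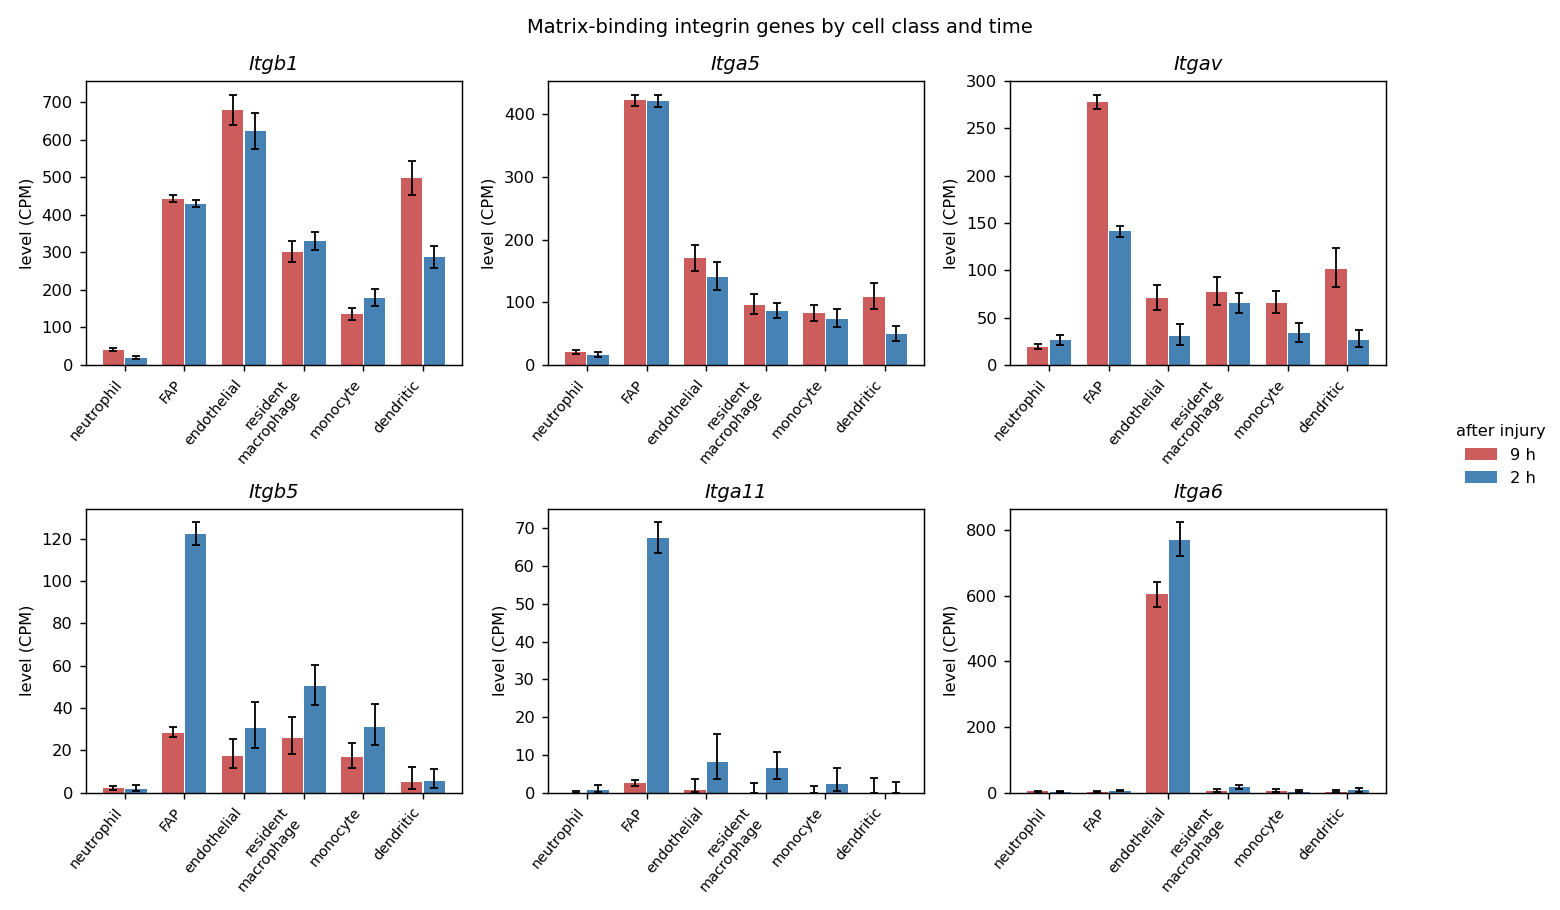
Levels (CPM, linear axes from 0) of 6 matrix-binding integrin genes in the 6 larger classes, with 9 h in red left of 2 h in blue and exact 95% Poisson intervals as error bars. In FAP-like cells the bars of Itga5 and Itgb1 have nearly the same height at both times, the Itgav bar is taller at 9 h, and the Itgb5 and Itga11 bars are much shorter at 9 h.

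The FAP-like cells fell into clusters by library, so the comparison of times is largely a comparison of clusters. Cluster 1 (1572 cells at 9 h, led by Cxcl5, Ccl2 and Hmga2) had the highest Itgav level. There it was at 379 CPM, against 64.1 CPM in cluster 11 (528 cells, led by Saa1, Saa2 and Serpina3n) and 80.5 CPM in cluster 13 (231 cells, led by Krtdap, Dmkn and Sbsn). The 2 h clusters were between these, at 144 CPM in cluster 2 (1414 cells, led by Col15a1, Angptl1 and Abca8a) and 136 CPM in cluster 7 (569 cells, led by Sema3c, Efhd1 and Pi16). Itga5 and Fermt2 were also highest in cluster 1. At 9 h Itga5 was at 509 CPM in cluster 1, 243 CPM in cluster 11 and 225 CPM in cluster 13, and at 2 h at 473 CPM in cluster 2 and 301 CPM in cluster 7. At 9 h Fermt2 was at 386, 113 and 164 CPM in clusters 1, 11 and 13, and at 2 h at 343 and 292 CPM in clusters 2 and 7. The near equal class levels of Itga5 thus averaged over clusters with unequal levels.

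Itga11 and Itgb5, by contrast, were lower in every large 9 h cluster than in either 2 h cluster. At 9 h Itga11 was at 2.50, 0.993 and 1.87 CPM in clusters 1, 11 and 13, against 64.0 and 75.6 CPM in clusters 2 and 7 at 2 h. Itgb5 was at 19.5, 44.0 and 47.2 CPM in the same 9 h clusters, against 120.1 and 128 CPM in the 2 h clusters. The 37 cells of the 9 h library that lay in cluster 2 had Itgb5 at 88.7 CPM (14 UMIs, 48.5 to 149). They had Itga11 at 19.0 CPM (3 UMIs, 3.92 to 55.6). The Itgb5 interval covers the level of cluster 2 at 2 h, and the Itga11 interval lies below it. Itgb7, a leukocyte gene by name, marked a different division. It was at 40.7 CPM in cluster 13 and 31.6 CPM in cluster 7, both of which had Pi16 among their leading genes, against 1.74 CPM in cluster 1, 1.24 CPM in cluster 11 and 0.446 CPM in cluster 2. The carry-over estimate for Itgb7 from neutrophil-like cells was 0.0391 CPM at 9 h and 0.0587 CPM at 2 h. Those cells held little Itgb7, so this estimate could not be large. None was made from dendritic-like or monocyte-like cells, which held more of it, and their part was not tested.

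**Figure D4:**
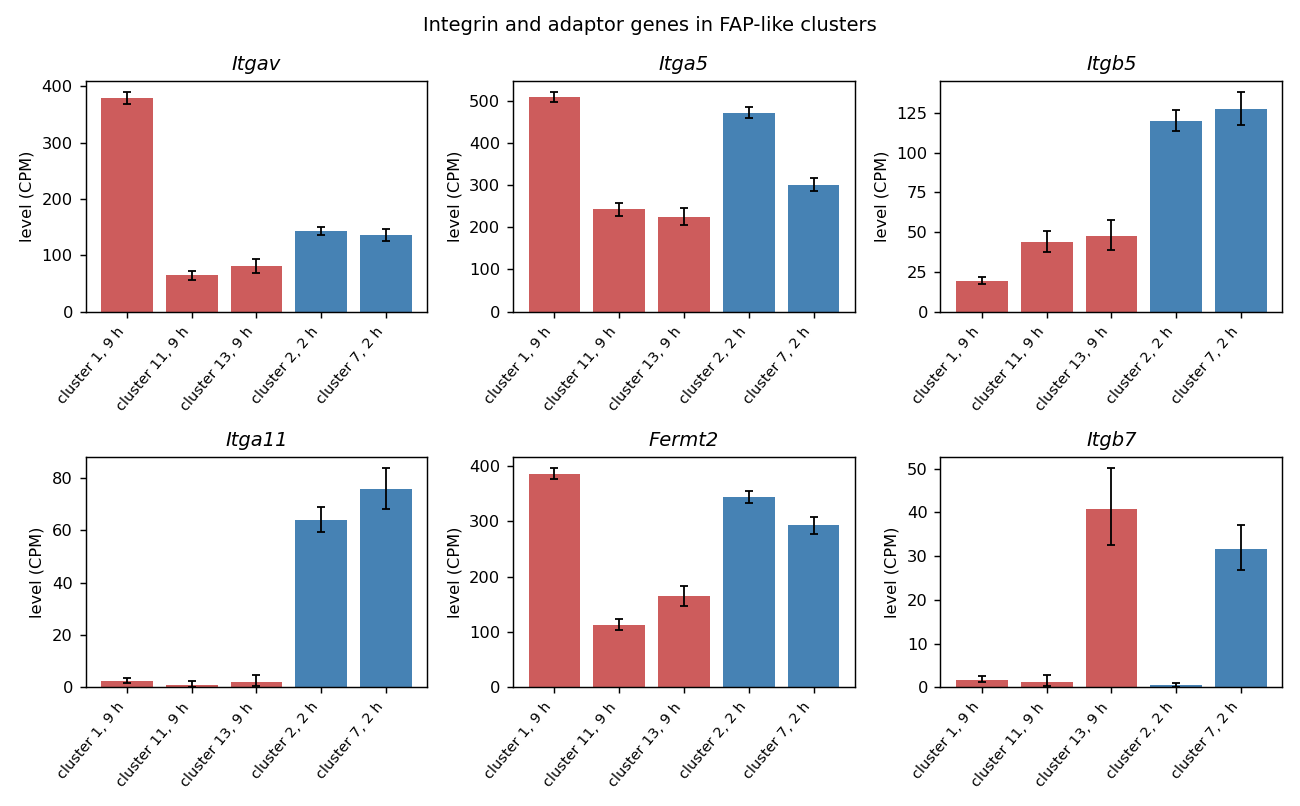
Levels (CPM, linear axes from 0) of 6 genes in the large FAP-like clusters, with 9 h clusters in red left of 2 h clusters in blue and exact 95% Poisson intervals as error bars. Itgav is highest in cluster 1 of the 9 h library, Itgb5 and Itga11 are lower in all 3 clusters at 9 h than in both at 2 h, and Itgb7 is higher in cluster 13 and cluster 7 than in the other 3.

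Endothelial-like cells held most transcripts of the laminin receptor genes Itga6 and Itga3, and of their measured genes 1 was past 2-fold. Of the 38 genes, 18 were measured in these cells, with 1 higher at 9 h (Itgam, treated above) and 0 lower, against 6.82% higher and 8.59% lower of all 4132. The median log2 ratio was -0.14 over the 18 genes and 0.04 over all. Itga6 (ENSMUSG00000027111, chromosome 2, 71745616 to 71858416, plus strand) was at 603 CPM at 9 h and 769.7 CPM at 2 h, a ratio of 0.784 (0.714 to 0.860), and Itga3, another laminin receptor chain, at 113 CPM at 9 h and 68.7 CPM at 2 h, a ratio of 1.65 (1.26 to 2.19). The class held 89.5% at 9 h and 81.2% at 2 h of all Itga6 UMIs, and of the Itga3 UMIs 87.1% at 9 h and 69.7% at 2 h. Itga1 (ENSMUSG00000042284, chromosome 13, 114953096 to 115101964, minus strand), the alpha chain of a receptor for basement membrane collagen, was at 282 CPM at 9 h and 389 CPM at 2 h. The genes Pelo and Gm49395 lie within Itga1 on the same strand, as Gm49368 does within Itgam, and how the authors' counting treated shared reads is not stated. Itgb1 was at 679 CPM at 9 h and 622 CPM at 2 h, Itga5 at 170.1 CPM at 9 h and 140.0 CPM at 2 h and Itgav at 70.4 CPM at 9 h and 30.7 CPM at 2 h. Dcn reached 13.9% of its FAP-like level here at 9 h and 13.0% at 2 h. The carry-over estimate was 58.7 CPM at 9 h and 54.6 CPM at 2 h for Itga5, 38.7 CPM at 9 h and 18.3 CPM at 2 h for Itgav, and under 1 CPM for Itga6 and Itga3 at either time.

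In the other myeloid classes the matrix-binding genes were within 2-fold. Resident macrophage-like cells had Itgb1 at 302 CPM at 9 h and 329 CPM at 2 h, Itga5 at 95.8 CPM at 9 h and 86.5 CPM at 2 h, Itgav at 77.3 CPM at 9 h and 65.1 CPM at 2 h and Itgb5 at 26.0 CPM at 9 h and 50.2 CPM at 2 h. Monocyte-like cells had Itgb1 at 135 CPM at 9 h and 179 CPM at 2 h, Itga5 at 82.1 CPM at 9 h and 73.8 CPM at 2 h, Itgav at 65.9 CPM at 9 h and 33.2 CPM at 2 h and Itga1 at 68.8 CPM at 9 h and 50.2 CPM at 2 h. In monocyte-like cells Itga1 had 144 UMIs at 9 h and 68 at 2 h, with carry-over estimates of under 1 CPM.

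Among the adaptors, Zyx, Vcl and Pxn had lower levels at 9 h in each of the 6 classes. Zyx was past the limit in neutrophil-like and FAP-like cells, Vcl only in dendritic-like cells and Pxn only in resident macrophage-like cells. Tln1 and the kindlin genes were within 2-fold wherever they were measured. Zyx (ENSMUSG00000029860, chromosome 6, 42349630 to 42360213, plus strand) encodes zyxin, a LIM protein that moves onto actin fibres under strain. It was at 388 CPM at 9 h and 977 CPM at 2 h in neutrophil-like cells, 2.52-fold lower (2.40 to 2.64), and at 115 CPM at 9 h and 266 CPM at 2 h in FAP-like cells, 2.31-fold lower (2.19 to 2.43). In the other 4 classes the ratio of 9 h over 2 h was under 1 but within 2-fold. Zyx was at 188 CPM at 9 h and 265 CPM at 2 h in endothelial-like cells and 197 CPM at 9 h and 308 CPM at 2 h in resident macrophage-like cells. Zyx stood at 268 CPM at 9 h and 455 CPM at 2 h in monocyte-like cells and 268 CPM at 9 h and 466 CPM at 2 h in dendritic-like cells. The calls in neutrophil-like and FAP-like cells held under TMM scaling, at log2 ratios of -1.17 and -1.02. Under TMM the log2 ratios of Zyx and Vcl stayed below 0 in all 6 classes, while that of Pxn was 0.05 in monocyte-like cells. Within neutrophil-like cluster 0 Zyx was at 796 CPM at 9 h and 997 CPM at 2 h. In cluster 4 it was at 390.1 CPM at 9 h and 711 CPM at 2 h.

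Vcl encodes vinculin, the clutch between talin and actin. Its call in dendritic-like cells was not firm, as given above. Vcl was there at 38.6 CPM at 9 h and 90.2 CPM at 2 h, lower at 9 h (2.34-fold, 1.60 to 3.48). It was at 54.8 CPM at 9 h and 108 CPM at 2 h in FAP-like cells, 174 CPM at 9 h and 275 CPM at 2 h in endothelial-like cells and 28.8 CPM at 9 h and 51.8 CPM at 2 h in neutrophil-like cells, all within 2-fold. Its level was 47.2 CPM at 9 h and 59.4 CPM at 2 h in resident macrophage-like cells, and in monocyte-like cells 32.5 CPM at 9 h and 49.5 CPM at 2 h. Pxn, which encodes the scaffold paxillin, was lower in resident macrophage-like cells, at 66.4 CPM at 9 h (53.8 to 80.9) and 195 CPM at 2 h (177 to 214), 2.94-fold lower (2.35 to 3.70). It was found in 5.31% at 9 h and 17.8% at 2 h of thinned cells. In this class the 12 FAP markers, none at 0, summed to 570.5 CPM at 9 h and 3704 CPM at 2 h, and the 12 dendritic markers (3 at 0 at 9 h, 1 at 2 h) to 21209 CPM at 9 h and 33904 CPM at 2 h. The carry-over estimate for Pxn from FAP-like cells was 2.83 CPM at 9 h and 10.3 CPM at 2 h, and the part of dendritic-like cells in the Pxn level was not tested. Elsewhere Pxn was within 2-fold, at 154 CPM at 9 h and 209 CPM at 2 h in neutrophil-like cells, 66.7 CPM at 9 h and 119 CPM at 2 h in FAP-like cells, 158 CPM at 9 h and 168 CPM at 2 h in endothelial-like cells, 91.2 CPM at 9 h and 102 CPM at 2 h in monocyte-like cells and 57.3 CPM at 9 h and 67.4 CPM at 2 h in dendritic-like cells.

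The talin genes differed in range. Tln1, the talin of most cells, was within 2-fold in all 6 classes, at 137 CPM at 9 h and 148 CPM at 2 h in neutrophil-like cells, 68.5 CPM at 9 h and 76.5 CPM at 2 h in FAP-like cells and 131 CPM at 9 h and 120.2 CPM at 2 h in endothelial-like cells. Tln1 stood at 205 CPM at 9 h and 179 CPM at 2 h in resident macrophage-like cells, 268 CPM at 9 h and 346 CPM at 2 h in monocyte-like cells and 124 CPM at 9 h and 195 CPM at 2 h in dendritic-like cells. Tln2, the talin enriched in muscle and heart, was lower in FAP-like cells, at 7.71 CPM at 9 h and 29.9 CPM at 2 h (3.88-fold, 3.23 to 4.69), and was at 34.9 CPM at 9 h and 39.7 CPM at 2 h in endothelial-like cells. In endothelial-like cells Fermt2 was at 288 CPM at 9 h and 381 CPM at 2 h. Among dendritic-like cells it had under 100 UMIs and a level of 27.1 CPM at 9 h and 3.79 CPM at 2 h, beside a carry-over estimate from FAP-like cells of 24.7 CPM at 9 h and 0.997 CPM at 2 h. Fermt3 was at 157 CPM at 9 h and 91.3 CPM at 2 h in resident macrophage-like cells (ratio 1.72, 1.42 to 2.09), 154 CPM at 9 h and 173 CPM at 2 h in monocyte-like cells and 127 CPM at 9 h and 95.5 CPM at 2 h in dendritic-like cells.

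The ILK, PINCH and parvin proteins form one complex at the beta chain's tail. Ilk was at 49.9 CPM at 9 h and 59.6 CPM at 2 h in FAP-like cells, and in endothelial-like cells at 92.9 CPM at 9 h and 103 CPM at 2 h. It was at 63.6 CPM at 9 h and 74.7 CPM at 2 h in resident macrophage-like cells and 57.8 CPM at 9 h and 70.1 CPM at 2 h in monocyte-like cells. Lims1, which encodes PINCH-1, was at 123 CPM at 9 h and 151 CPM at 2 h in neutrophil-like cells, 97.7 CPM at 9 h and 106 CPM at 2 h in FAP-like cells and 141 CPM at 9 h and 125 CPM at 2 h in endothelial-like cells, and between 84.1 and 137 CPM in the other 3 classes. Neither gene reached 2-fold in any of the 6. The parvins split by cell type. Parva was at 44.6 CPM at 9 h and 85.5 CPM at 2 h in FAP-like cells and 31.2 CPM at 9 h and 69.6 CPM at 2 h in endothelial-like cells. Parvb was at 167 CPM at 9 h and 210.5 CPM at 2 h in endothelial-like cells and 72.5 CPM at 9 h and 73.8 CPM at 2 h in resident macrophage-like cells, but at 1.07 CPM at 9 h and 0.749 CPM at 2 h in FAP-like cells. In dendritic-like cells Parvb was lower, at 22.9 CPM at 9 h and 62.9 CPM at 2 h (2.74-fold, 1.70 to 4.61, from 22 UMIs at 9 h and 83 at 2 h). Parvg, the parvin of blood cells, did not reach 50 CPM in any of the 6 and was highest in dendritic-like cells, at 12.5 CPM at 9 h and 35.6 CPM at 2 h. Ptk2, which encodes focal adhesion kinase, was at 55.9 CPM at 9 h and 64.3 CPM at 2 h in FAP-like cells and 103 CPM at 9 h and 131 CPM at 2 h in endothelial-like cells, and at 1.21 CPM at 9 h and 0.570 CPM at 2 h in neutrophil-like cells.

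Scaling by TMM moved the split of all measured genes. In FAP-like cells 970 were higher and 824 lower under it, against 775 and 971 as reported, and in monocyte-like cells 266 and 152, against 177 and 247. In neutrophil-like cells 292 were higher and 220 lower, against 236 and 289 as reported, and in dendritic-like cells 136 and 207, against 169 and 163. Among the 24 calls on the 38 genes, TMM ended 2, Itgb2 in neutrophil-like cells and Itga5 in dendritic-like cells.

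**Figure D5:**
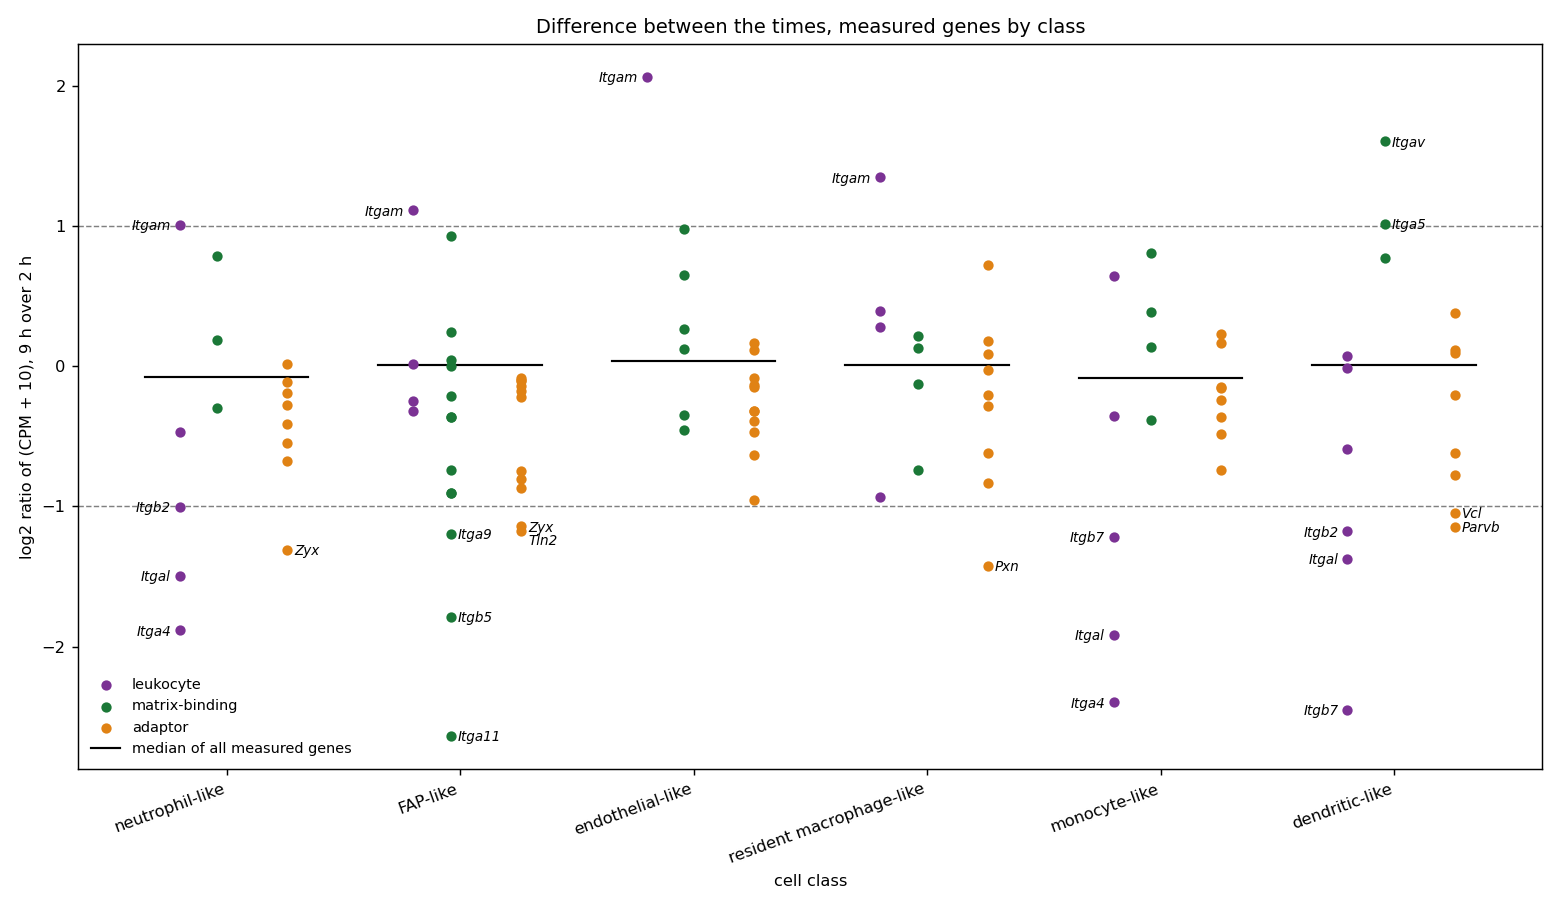
Log2 ratio of the levels at 9 h over 2 h, each with 10 CPM added, for every measured gene of the 38 in the 6 larger classes, coloured by role, with the median of all measured genes of the class as a black line and the 2-fold limits dashed. Called genes are named: Itgam is above the upper limit in 4 classes, and Itgal is below the lower limit in neutrophil-like, monocyte-like and dendritic-like cells.

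Classes with under 100 cells in a library are given as levels only. Pericyte-like or smooth muscle-like cells (32 at each time) had Itgb1 at 1188 CPM at 9 h and 1009.6 CPM at 2 h, Itga7, the muscle laminin receptor chain, at 75.3 CPM at 9 h and 146 CPM at 2 h, and Itga8 at 64.5 CPM at 9 h and 124 CPM at 2 h. Itga1 was at 156 CPM at 9 h and 381 CPM at 2 h and Vcl at 258 CPM at 9 h and 288 CPM at 2 h in them. Satellite-like cells, the muscle stem cells (68 at 9 h and 81 at 2 h), had Itga7 at 77.7 CPM at 9 h and 51.2 CPM at 2 h, Itgb1 at 373 CPM at 9 h and 276 CPM at 2 h and Tln2 at 19.4 CPM at 9 h and 185 CPM at 2 h, with 5 Tln2 UMIs at 9 h and 65 at 2 h. Tenocyte-like cells (64 at 9 h and 80 at 2 h) had Itgb5 at 24.2 CPM at 9 h and 219 CPM at 2 h, Itga2 at 10.1 CPM at 9 h and 138 CPM at 2 h and Itga11 at 4.03 CPM at 9 h and 72.5 CPM at 2 h. The direction of Itgb5 and Itga11 there was that of FAP-like cells. Tenocyte-like cells also carried FAP markers, with Dcn at 122% of its FAP-like level at 9 h and 104% at 2 h. T-like or NK-like cells (36 at 9 h and 103 at 2 h) had Itgav at 281 CPM at 9 h and 205 CPM at 2 h, Itgb7 at 140.4 CPM at 9 h and 180.5 CPM at 2 h, Itgal at 70.2 CPM at 9 h and 182 CPM at 2 h and Itgb3 at 78.0 CPM at 9 h and 82.2 CPM at 2 h. B-like cells (4 at 9 h and 45 at 2 h) had Itga4 at 311 CPM at 2 h, from 41 UMIs. Glial-like cells (17 at 9 h and 11 at 2 h) had Itga1 at 587 CPM at 9 h and 553 CPM at 2 h and Itgb8 at 143 CPM at 9 h and 442 CPM at 2 h, from 10 UMIs at 9 h and 16 at 2 h.

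The 5 genes not measured in any larger class were Itga10, Itgad, Itgae, Itgb4 and Itgb6. Itgad, which lies beside Itgam and Itgax on chromosome 7, had 0 UMIs at 9 h and 3 at 2 h over all kept cells. Itgae, the chain of the integrin that binds E-cadherin, was at 11.5 CPM at 9 h and 9.09 CPM at 2 h in dendritic-like cells and under 1 CPM in the other 5. Itgb4, the hemidesmosome chain, was at 1.25 CPM at 9 h and 9.94 CPM at 2 h in endothelial-like cells. Itgb6 had 1 UMI at 9 h and 14 at 2 h.

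Ligands of these receptors were read from a list of 24 genes. Of all measured genes, 7.41% were higher and 9.28% lower at 9 h in FAP-like cells, and 4.79% and 5.87% in neutrophil-like cells. The shares were 4.5% and 6.28% in monocyte-like cells and 4.11% and 8.24% in resident macrophage-like cells. They were 5.72% and 5.52% in dendritic-like cells and 6.82% and 8.59% in endothelial-like cells. In FAP-like cells 16 of the 24 were measured, with 2 higher at 9 h (Spp1 and Tnc) and 6 lower (Fn1, Col1a1, Lama2, Lamb1, Lamc1 and Nid1). Their median log2 ratio was -0.84, against 0.01 over all measured genes of the class. Spp1 was also carried by neutrophil-like cells, at the levels given below. S100a8 in FAP-like cells was at 1.90% of its neutrophil-like level at 9 h and 0.936% at 2 h. The part of neutrophil RNA in the Spp1 call was not tested. Tnc, which encodes the injury matrix protein tenascin-C, was at 274 CPM at 9 h and 3.68 CPM at 2 h, 74.4 times as high (57.6 to 97.8), and took no part in the clustering. Col1a1 was at 326 CPM at 9 h and 2208 CPM at 2 h (6.77-fold lower) and the laminin gene Lama2 at 154 CPM at 9 h and 537 CPM at 2 h. In neutrophil-like cells 2 of 6 were higher, Icam1 at 179 CPM at 9 h and 28.5 CPM at 2 h and Spp1 (osteopontin) at 2439 CPM at 9 h and 817 CPM at 2 h, and 0 were lower. In monocyte-like cells 2 of 5 were higher and 0 lower, with Spp1 at 1763 CPM at 9 h and 147 CPM at 2 h and Thbs1 (thrombospondin-1) at 10049 CPM at 9 h and 3565 CPM at 2 h. Thbs1 was also 1 of the 8 genes used to name monocyte-like cells. Resident macrophage-like cells had 2 of 10 higher and 5 lower, with Thbs1 at 2188 CPM at 9 h and 619 CPM at 2 h and Spp1 at 207 CPM at 9 h and 32.3 CPM at 2 h. Dendritic-like cells had 3 of 4 higher and 0 lower, with Thbs1 at 604 CPM at 9 h and 106 CPM at 2 h, Icam1 at 559.8 CPM at 9 h and 181 CPM at 2 h and Col4a1 at 134 CPM at 9 h and 27.3 CPM at 2 h. The carry-over estimate for Thbs1 there was 301 CPM at 9 h and 65.3 CPM at 2 h from neutrophil-like cells and 148 CPM at 9 h and 8.91 CPM at 2 h from FAP-like cells. For Col4a1 it was 124 CPM at 9 h and 6.09 CPM at 2 h from FAP-like cells, close to its 9 h level, and for Icam1 it was under 10 CPM from either source. In endothelial-like cells 1 of 15 was higher, Thbs1 at 1597 CPM at 9 h and 769.7 CPM at 2 h, and 3 were lower (Fn1, Col1a1 and Lama2). The carry-over estimate for Thbs1 there was 969 CPM at 9 h and 323 CPM at 2 h from neutrophil-like cells and 253 CPM at 9 h and 379.6 CPM at 2 h from FAP-like cells, which together make up most of either level. Fn1 was at 109 CPM at 9 h and 382 CPM at 2 h, beside an estimate from FAP-like cells of 109.5 CPM at 9 h and 260.4 CPM at 2 h. Col1a1 was lower there and in resident macrophage-like cells (5.47 CPM at 9 h and 185 CPM at 2 h), where Dcn was at 4.25% of its FAP-like level at 9 h and 8.63% at 2 h, and the carry-over estimate for Col1a1 was 13.9 CPM at 9 h and 191 CPM at 2 h. In endothelial-like cells Col1a1 was at 25.6 CPM at 9 h and 301 CPM at 2 h, beside an estimate of 45.3 CPM at 9 h and 286 CPM at 2 h. The part of carried-over RNA in these ligand results was not tested. Col1a1 was also 1 of the 12 genes used to name FAP-like cells.

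Of 51 other adhesion-complex genes, 48 were measured in FAP-like cells, with 1 higher at 9 h (Actn1) and 7 lower (Enah, Tns1, Tns2, Fyn, Lims2, Tgfb1i1 and Palld). Their median log2 ratio was -0.05, against 0.01 over all measured genes of the class, of which 7.41% were higher and 9.28% lower. The shares of the other classes are those given with the ligands. Fyn, a Src-family kinase, was at 46.2 CPM at 9 h and 158 CPM at 2 h and the tensin gene Tns1 at 51.7 CPM at 9 h and 145 CPM at 2 h. In neutrophil-like cells 29 were measured, with 3 higher (Enah and Lpp among them) and 3 lower (Flna, Rsu1 and Rasgrp2). Lpp, a LIM protein related to zyxin, was at 104 CPM at 9 h and 24.8 CPM at 2 h, and Flna (filamin A) at 67.3 CPM at 9 h and 194 CPM at 2 h. Lpp and Zyx thus went opposite ways in these cells. The count was 0 higher and 3 lower of 35 in endothelial-like cells, 0 and 2 of 25 in resident macrophage-like cells, 1 and 1 of 22 in monocyte-like cells and 0 and 0 of 17 in dendritic-like cells. In monocyte-like cells the higher gene was Tes (testin), at 277 CPM at 9 h and 84.9 CPM at 2 h. Of 16 actin cytoskeleton genes, all 16 were measured in FAP-like cells, with 1 higher, Pfn1 (profilin-1) at 754 CPM at 9 h and 310.3 CPM at 2 h, and 2 lower, Actg1 at 2043 CPM at 9 h and 5240.4 CPM at 2 h and Myl9. Neutrophil-like cells had 0 higher and 3 lower of 13, Tagln2 at 90.8 CPM at 9 h and 293 CPM at 2 h, Cnn2 at 41.6 CPM at 9 h and 128 CPM at 2 h and Tpm4 at 269 CPM at 9 h and 620.5 CPM at 2 h. Monocyte-like cells had 0 higher and 2 lower of 12, Cnn2 and Tagln2, and the remaining 3 classes had 0 of 14, 14 and 12 past the limit.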

How the data were processed

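Single-cell RNA was read from mononuclear cells of injured mouse quadriceps in 1 library at 9 h and 1 at 2 h. The deposited values are raw UMI counts per gene and cell barcode, which, per the submitters' processing notes, come from Cell Ranger 5.0.0 and the mm10 build. The 38 genes and all gene and marker lists were chosen with earlier results of these data known.

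Barcodes with under 500 UMIs or under 200 genes (264 at 9 h and 513 at 2 h) and then those with over 20% mitochondrial UMIs (379 at 9 h and 316 at 2 h) were removed, which kept 92.7% of 8790 barcodes at 9 h and 85.5% of 5729 at 2 h. Both libraries were clustered together in Scanpy 1.11.5 (2000 variable genes without the 38 genes and the listed genes, 30 principal components, Leiden resolution 1, seed 0). Scrublet marked 0 cells as doublets at 9 h and 6 (0.122%) at 2 h. Since both are under 0.5% of cells, its calls were not used and no cell was removed. The alternative that leaves out the highest scores took 573 cells at 9 h and 225 at 2 h. UMIs were summed per class and library and given as CPM with exact Poisson intervals, ratios with exact conditional binomial intervals, and shares of cells with exact Clopper-Pearson intervals. These treat UMIs as independent, cover counting error only, and understate the error where a gene's UMIs come from few cells. No p-value was computed, since each time is 1 library. TMM scaling used edgeR 4.0.16, as an alternative. The ratios and their intervals were tested on simulated Poisson counts with known folds, without added spread between cells. The 2-fold calls were not tested in that way.

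Genes of the 38 are given with full values in classes where they reached 50 CPM in 1 library, and otherwise by ranges, counts or single values. From the lists of 24 ligands, 51 other adhesion-complex genes and 16 actin genes the rule was the 3 highest and 3 lowest log2 ratios among genes with at least 100 CPM in a class, of which only some are printed. Small-class values and cluster values were chosen after they were seen.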

Additional observations from a re-analysis of the deposited data

How the results depend on the processing

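Of 24 ratios of single genes past the 2-fold limit, 19 stayed past it under every alternative run, and 0 of 227 pairs of ratio and alternative reversed. The other 5 were Itgam in FAP-like and in neutrophil-like cells, Itgb2 in neutrophil-like cells, and Itga5 and Vcl in dendritic-like cells, and the cause was not tested. Of 116 counts of the 38 genes past the limit, 23 moved by over 1.5 times. Clustering with the 38 genes and the lists gave 1 gene higher and 3 lower in dendritic-like cells, against 2 and 5 as reported, and a mitochondrial limit of 10% gave the same counts. That limit also gave 2 higher in endothelial-like cells, against 1, and 2 lower in resident macrophage-like cells, against 1. Resolution 0.5 gave 2 higher in endothelial-like cells. Resolution 2 gave 0 higher in neutrophil-like cells, against 1, and 2 lower in resident macrophage-like cells. Leaving out the highest doublet scores gave 0 higher in FAP-like and in endothelial-like cells, against 1 each, and 2 lower in resident macrophage-like cells. TMM scaling gave 2 higher in FAP-like cells (adding Itgav), 1 higher in dendritic-like cells and 2 higher in endothelial-like cells. It moved the median log2 ratio of all genes to 0.11 in monocyte-like cells, against -0.08 as reported, to 0.04 in neutrophil-like cells, against -0.07, and to -0.10 in dendritic-like cells, against 0.01. A pseudocount of 1 CPM gave 9 lower in FAP-like cells, against 5, 2 higher and 1 lower in endothelial-like cells, 2 higher in neutrophil-like cells and 3 lower in resident macrophage-like cells. With no minimum of UMIs, or at least 20, 4 were higher in dendritic-like cells, because more genes counted as measured. Without FAP-like cluster 11, the one with the highest Prg4 level, 2 were higher in FAP-like cells. Leaving out the barcodes found in both libraries, an alternative chosen after seeing the data, moved none of these counts. At resolution 0.5 the resident macrophage and dendritic classes had no name, and with the highest doublet scores left out the dendritic class gave no value. No paired analysis was possible because each time is 1 library. Genes with few UMIs, such as Itgb8 in dendritic-like cells, are limited by depth, and differences between mice, dissociations or library runs cannot be told apart from time.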
